A study of Homo sapiens with 24 samples.

Results

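The comparison described here asks, for every gene measured, whether its transcript changed differently between 90 and 360 min of actinomycin D in HMLE cells that overexpress RBMS3 and in HMLE cells that carry LacZ. HMLE is an immortalized human mammary epithelial line, LacZ is the control, and actinomycin D at 10 µg/mL was given to both lines. The value for a gene is the change from 90 to 360 min in RBMS3 cells minus the same change in LacZ cells, on log2(normalized count + 1), where the normalized count is the value of the authors' series-wide table. A value below 0 therefore means that the transcript lost more, or gained less, in RBMS3 cells relative to other transcripts, on the scale of that table. It rests on 4 groups of 3 libraries, LacZ cells at 90 and 360 min and RBMS3 cells at 90 and 360 min, out of 24 libraries and 8 groups in all, which also cover 0 and 180 min. All genes were members of the comparison: 12096 of the 38849 genes in the table had a mean of at least 10 over all libraries and were tested. The libraries were made with QuantSeq, which primes on the poly(A) tail and reads the 3' end of transcripts. Whether replicate libraries are separate cultures is not in the labels, so each p-value covers the spread among libraries, possibly a technical one.

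RBMS3 is an RNA-binding protein of a small family that binds AU-rich single-stranded RNA, and the study set out to find transcripts whose stability it controls. Actinomycin D blocks transcription, so the level of a transcript after it is added follows its decay, read against the rest of the library. Transcripts of immediate early genes, of many transcription factors and of cytokines are short-lived, often through AU-rich elements in their 3' untranslated regions. Transcripts for ribosomal proteins and for central metabolism are long-lived and gain relative to others as those are lost. No measure of total RNA per cell was made, so fewer cells and less RNA per cell cannot be told apart. A transcript that rises has gained relative to others, not necessarily in copies.

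Sums of normalized counts in the 12 libraries compared ranged from 6894363 to 8080428, with 14346 to 15459 genes above 0, and the lowest Pearson r between replicate libraries over genes was 0.944. The sums rose from 6894363 to 6974803 at 90 min to 7638907 to 7741042 at 360 min in LacZ cells. In RBMS3 cells they rose from 6992762 to 7068279 to 7875078 to 8080428. A normalized count is thus not a share of the library sum. Epithelial markers separated the lines at both times: CDH1 was listed at 471 to 552 in the 6 LacZ libraries and at 0 to 13.6 in the 6 RBMS3 libraries, and EPCAM at 1868 to 2263 and at 1.05 to 13.6. VIM, a mesenchymal intermediate filament, was at 4288 to 5558 in LacZ cells and at 17919 to 21068 in RBMS3 cells. The basal keratins KRT5 (3539 to 4784 in LacZ cells, 664 to 1122 in RBMS3 cells) and KRT14 (2356 to 3557 and 723 to 1198) were lower in level in RBMS3 cells but present. Of the defining epithelial markers CDH1 and EPCAM were thus at or near 0 in RBMS3 cells, while keratins were not. At 90 min 3606 genes differed between the lines (29.8% of those tested), and at 360 min 4259 did (35.2%). Of 14 leukocyte or endothelial markers 2 were high enough to test.

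The RBMS3 transcript was at 174, 236 and 219 in RBMS3 cells at 90 min and at 197, 236 and 201 at 360 min. In LacZ cells it was at 48.7, 60.5 and 130 at 90 min and at 73.3, 77.8 and 165 at 360 min. Every RBMS3 library was above every LacZ library at both times, and the difference between the lines in the change was -0.41 ± 0.56 (log2, SE; limma adjusted p 0.96). It was -0.04 without LacZ 360 min replicate 3, -0.12 without LacZ 90 min replicate 1, -0.28 without LacZ 90 min replicate 2, -0.62 without LacZ 360 min replicate 1 and -0.82 without LacZ 90 min replicate 3. A 3' tag from an introduced copy without the gene's own 3' end would not be read as this transcript. PRRX1, a mesenchymal transcription factor, was listed at 0 in all 6 LacZ libraries, so a change in that line could not be measured. In RBMS3 cells PRRX1 was at 437, 448 and 562 at 90 min and at 600, 521 and 503 at 360 min, a change of 0.17 with an adjusted p of 0.88, and its values overlapped between the times.

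One transcript of the 12096 passed for the difference between lines (limma adjusted p under 0.05), which is 0.00827% of those tested. None had a more positive change in RBMS3 cells, and 1 had a less positive one, RNA5S1, which rose in both lines. RNA5S1 is a gene for 5S ribosomal RNA, the small RNA of the large ribosomal subunit that RNA polymerase III makes. At an unadjusted p under 0.05 there were 790 genes (6.53%), 366 with a more positive change in RBMS3 cells (3.03%) and 424 with a more negative one (3.51%). The median difference over all genes was 0.00, and the middle 90% of genes lay between -1.08 and 1.01. The comparison is thus described by its called gene, by its precision, by what both lines shared, and by the genes nearest to the threshold, whose differences did not pass.

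RNA5S1 is 1 of 17 annotated numbered RNA5S genes on chromosome 1 (GENCODE 29), 16 of which have the same 119 bases. A read cannot be placed among these copies, so the value stands for reads of the copies together and not for a single gene. Most small RNAs lack a poly(A) tail in their mature form, and QuantSeq primes on that tail. The value therefore need not follow the level of 5S rRNA.

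In LacZ cells RNA5S1 was at 122, 170 and 76.6 at 90 min, at 268, 350 and 325 at 180 min and at 1460, 1472 and 1180 at 360 min. In RBMS3 cells it was at 186, 129 and 182 at 90 min, at 149, 164 and 176 at 180 min and at 313, 324 and 327 at 360 min. The lines overlapped at 90 min and were apart at 180 and 360 min, with every LacZ library above every RBMS3 library at the later times. It rose in both lines, by 3.53 in LacZ cells and by 0.97 in RBMS3 cells, and the difference was -2.56 ± 0.40 (SE; limma adjusted p 0.038; 95% interval -3.40 to -1.72). The difference was -1.42 from 90 to 180 min and -1.14 from 180 to 360 min. Before actinomycin D the levels were 57.2, 28.7 and 58.3 in LacZ cells and 42.9, 29.2 and 58.5 in RBMS3 cells, and the groups overlapped. In the transcript files of RBMS3 cells at 90 and 360 min, whose names fit their samples, RNA5S1 had 183, 152 and 251 estimated reads at 90 min and 330, 309 and 317 at 360 min. The call was lost when the fit held only the 12 libraries compared (adjusted p 0.060) and without any 1 of those 12 libraries other than LacZ 90 min replicate 2, LacZ 360 min replicate 3 and RBMS3 90 min replicate 2, with adjusted p up to 0.19 and estimates from -2.26 to -2.59.

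**Figure D1:**
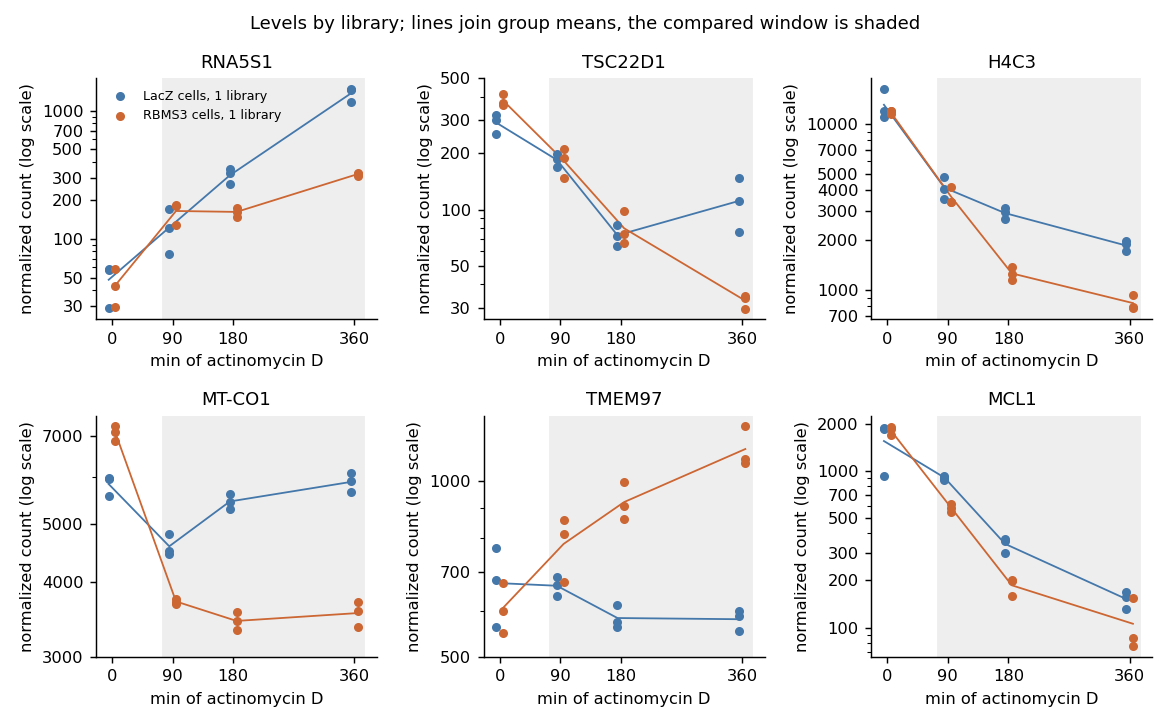
Normalized counts (log scale) of 6 transcripts in each library against min of actinomycin D, with lines through group means and the compared window shaded. RNA5S1 drew apart between the lines from 180 min on, TSC22D1 at 360 min and H4C3 from 180 min on, while MCL1 ran nearly in parallel from 90 to 360 min with a difference of 0.06; of these RNA5S1 passed for the difference.

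How small a difference could be seen depended on the level of the transcript. The median SE of a difference was 0.40 over all genes, 0.84 for genes at a mean of 10 to 50 over the 12 libraries, 0.43 at 50 to 200, 0.25 at 200 to 1000 and 0.16 at 1000 and above. The unadjusted 95% interval of a gene lay wholly within 1 log2 unit of 0 for 5204 genes (43%) and within 2 units for 9020 (74.6%). Among the 1311 genes at 1000 and above, 92.7% had an interval within 1 unit, against 0.5% of the genes at 10 to 50. For abundant transcripts a difference between the lines of 2-fold was therefore outside this interval in most cases. For rare ones such a difference was not detectable at this spread. A call was stricter than the interval, since its p was adjusted over all genes tested. RNA5S1 passed at -2.56, but other differences beyond 2-fold did not. PLEKHA2 (-1.70), SEPHS2 (-1.16), CDS2 (1.27) and MPZL3 (2.15) had limma adjusted p of 0.24 to 0.36. The intervals thus do not give the size at which a difference would be called. Of the genes tested, 448 had a mean under 10 in LacZ cells alone over the 6 libraries of the line and 585 in RBMS3 cells alone, and a gene near 0 in 1 line has no measurable change there.

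Within each line many genes changed from 90 to 360 min, and most of those called had the same direction of change in the other line. In LacZ cells 409 genes rose (3.38%) and 619 fell (5.12%), and in RBMS3 cells 922 rose (7.62%) and 1010 fell (8.35%). Both lines shared 468 genes that fell (3.87%) and 291 that rose (2.41%), and no gene was called in opposite directions. The 759 genes called in both lines were 73.8% of the LacZ calls and 39.3% of the RBMS3 calls. Another 151 fell and 118 rose in the LacZ test alone, and 542 fell and 631 rose in the RBMS3 test alone; passing in 1 line and not in the other is not a difference between them, and of all these genes RNA5S1, which rose in both, is the one whose difference passed. Of the LacZ calls 96.6% had the same sign in RBMS3 cells, of the RBMS3 calls 95% had it in LacZ cells, and of all genes 69.6% did. Across genes the changes of the 2 lines had a Pearson r of 0.476, and of 0.734 over the 1311 genes at 1000 and above, as a description, since genes are not replicates. The counts of rises depended on the scale and on single libraries. With libraries rescaled to the summed ribosomal protein transcripts, 33 genes rose and 1726 fell in LacZ cells and 37 rose and 2888 fell in RBMS3 cells, with median changes of -0.28 and -0.37 in place of 0.03 and 0.03. The count of 409 rises in LacZ cells was 208 without LacZ 90 min replicate 1, 238 without LacZ 90 min replicate 3, 244, 224 and 267 without LacZ 360 min replicate 1, 2 or 3, and 735 without LacZ 0 min replicate 2. The LacZ 0 min group had the lowest Pearson r between replicate libraries of the 8 groups (0.909). The 922 rises in RBMS3 cells were 592 without RBMS3 360 min replicate 2.

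**Figure D2:**
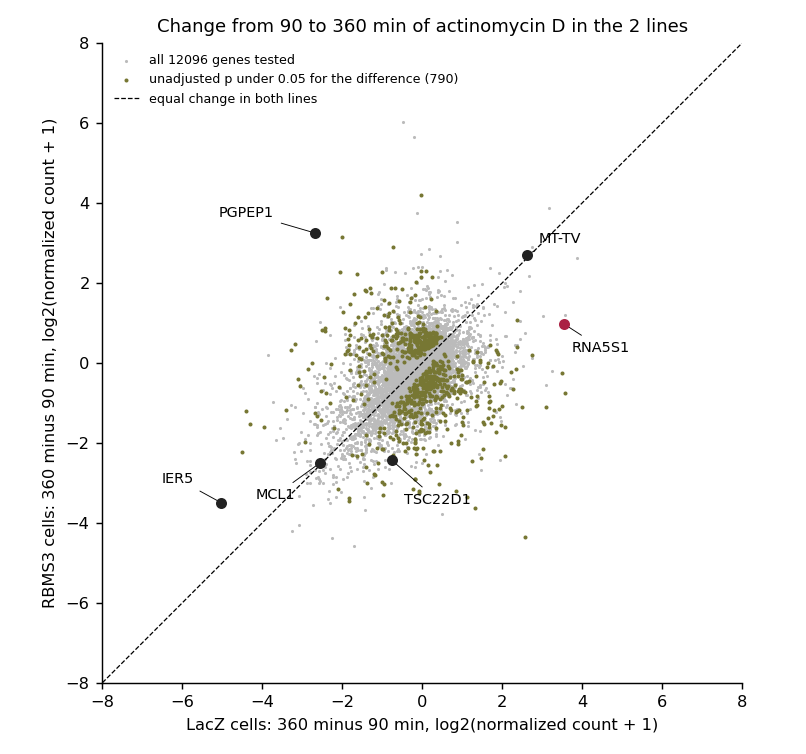
Change from 90 to 360 min in RBMS3 cells against that in LacZ cells, both in log2(normalized count + 1), 1 dot for each of the 12096 genes; darker dots are the 790 genes with an unadjusted p under 0.05 for the difference, and the dashed line marks an equal change. Genes with large falls in both lines, such as IER5 and MCL1, lie toward the lower left, MT-TV on the line at the upper right, and RNA5S1, the called gene, to the right of it.

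The falls shared by both lines included many transcripts known to be short-lived. Over the 468 genes that fell in both, the median change was -1.27 for LacZ cells and -1.36 for RBMS3 cells. MCL1, an anti-apoptotic protein of the BCL2 family with a short-lived transcript, was at 932, 906 and 877 in LacZ cells at 90 min and at 132, 156 and 169 at 360 min. In RBMS3 cells MCL1 was at 578, 614 and 549 and then at 86.3, 76.5 and 155. MCL1 fell, with changes of -2.57 and -2.51, and the difference was 0.06 ± 0.33 (95% interval from the fit -0.62 to 0.74). CEBPB, a transcription factor of the C/EBP family, was at 274, 228 and 285 in LacZ cells at 90 min and at 30.7, 44.3 and 56.6 at 360 min, and in RBMS3 cells at 295, 335 and 279 and at 44.6, 36.7 and 57.7. Both lines lost CEBPB, with changes of -2.59 and -2.70, with levels that overlapped between the lines at 360 min. FOXC2, a transcription factor of mesenchymal cells, started from 30.5, 35.9 and 22.6 in LacZ cells and from 247, 239 and 223 in RBMS3 cells at 90 min. FOXC2 fell, with changes of -2.49 and -2.53, to 4.09, 5.77 and 3.47 and to 35.1, 34.6 and 53.6, so the lines stayed apart in level, and the difference in the change was -0.03 ± 0.45. SOX9, a transcription factor of progenitor cells, was lower in RBMS3 cells (76.8 to 85.2 at 90 min, against 541 to 647 in LacZ cells) and fell, with changes of -1.36 in LacZ cells and -1.35 in RBMS3 cells, a difference of 0.01 ± 0.26.

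Other shared falls were as steep. SERTAD1, a regulator of cyclin-dependent kinase activity, changed by -2.82 in LacZ cells and -2.74 in RBMS3 cells. CCN1, a secreted matrix protein, changed by -2.67 and -2.89, DUSP5, a phosphatase of ERK, by -2.59 and -2.90, and CITED4, a transcriptional coactivator, by -2.60 and -2.86, all past the threshold in each line. The steepest in LacZ cells was IER5, an immediate early gene, at 175, 139 and 107 in LacZ cells at 90 min and at 3.07, 7.70 and 1.16 at 360 min. In RBMS3 cells IER5 was at 58.8, 83.1 and 61.6 and then at 4.74, 1.05 and 17.5. It fell, with changes of -5.03 and -3.50, and the difference of 1.53 ± 0.77 did not pass (limma adjusted p 0.78); the 360 min values overlap and lie where a few reads decide the level. Over the whole list of immediate early and labile genes, 50 were tested, 23 fell in LacZ cells and 25 in RBMS3 cells, 22 in both, beside 5.12%, 8.35% and 3.87% of all genes, the median changes were -1.35 and -1.30, and the median difference between the lines was 0.06, beside 0.00 for all genes. None of the 50 passed for the difference, beside 0.00827% of all genes. At an unadjusted p under 0.05 there were 2 with a higher and 3 with a lower value, beside 3.03% and 3.51% of all genes.

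AU-rich letters are shown for 5 transcripts, 3 that fell in both lines and 2 among the negative differences with the smallest p, from the 3' untranslated region of the most abundant annotated coding transcript (GENCODE 29, GRCh38). Capitals mark the AU-rich pentamer ATTTA, the longer form TTATTTATT or ATATA, a core reported for RBMS proteins. IER5 (plus strand, chr1:181092443-181092472) has 10 matches to ATTTA, 3 to TTATTTATT and 4 to ATATA in 3013 bases. MCL1 (minus strand, chr1:150577088-150577117) has 10 matches to ATTTA and 2 to ATATA in 2824 bases. CEBPB (plus strand, chr20:50192217-50192246) has 4 matches to ATATA and 1 to ATTTA in 618 bases. TSC22D1 (minus strand, chr13:44434380-44434409) has 5 matches to ATTTA, 0 to TTATTTATT and 5 to ATATA in 2483 bases. JUND (minus strand, chr19:18279997-18280026) has 1 match to ATTTA and 0 to ATATA in 681 bases. Overlapping matches were counted, on the transcript strand alone.

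IER5: gtgtcttcctTTATTTATTtatttatttaa

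MCL1: gaggacttttagATTTAgtgaagatggtag

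CEBPB: taatattttattATATAtatatatctatat

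TSC22D1: gaattagcatggATATAccgggacctcatg

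JUND: cgattctgccctATTTAtgtttctactcgg

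Such letters were common. Of the 10740 tested genes with an annotated region (88.8%), 72% held ATTTA, 60.5% held ATATA and 9% held TTATTTATT. Among the genes that fell in both lines the shares were 73.1%, 57.4% and 7.8%, with a median region of 1146 bases against 1177 for all. Among those that rose in both they were 36.5%, 26.9% and 1.2%, with a median of 330 bases, so the shorter regions and the lower shares go together. Per 1000 bases the density of ATATA was 1.86 over all genes, 1.76 in the genes that fell and 1.22 in those that rose. Genes with no ATATA had a median difference between lines of 0.04, those with 1 to 2 matches 0.02 and those with 3 or more -0.04, beside a median SE of 0.34 to 0.42. The region length rose over the same classes, from a median of 471 to 1092 and 2790 bases, and its part in these medians was not tested. ATTTA gave 0.06, 0.01 and -0.04 over the same classes of matches. TTATTTATT gave 0.01 over 9770 genes, -0.05 over 894 and -0.15 over 76, the last with a median SE of 0.67 and a median region of 4420 bases. The shares with an unadjusted p under 0.05 were 7.1%, 5.74% and 6.66% by matches to ATATA, near the 6.53% of all genes. A match is a description of letters and not a binding site.

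The rises shared by both lines were smaller, with a median of 0.36 in LacZ cells and 0.45 in RBMS3 cells, and included transcripts known as long-lived. LDHA, lactate dehydrogenase of glycolysis, was at 6777, 6830 and 6855 in LacZ cells at 90 min and at 9145, 9639 and 8822 at 360 min. In RBMS3 cells it was at 10464, 10288 and 10636 and then at 14866, 14590 and 13560. It rose by 0.43 and by 0.45, a difference of 0.02 ± 0.07, the replicates of the 2 times being apart in each line. KRT7, a keratin of simple epithelia, rose by 0.51 and 0.58, TIMP1, an inhibitor of matrix proteases, by 0.44 and 0.45, and EIF3G, a subunit of a translation initiation factor, by 0.63 and 0.65. Of 80 cytosolic ribosomal protein genes 58 rose in LacZ cells and 63 in RBMS3 cells, 55 in both, beside 3.38%, 7.62% and 2.41% of all genes, and none fell. With libraries rescaled to these genes the rises are removed by construction.

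Ribosomal protein transcripts leaned to a larger gain in RBMS3 cells without passing. Of the 80, 65 had a difference above 0, and the median was 0.09 beside 0.00 for all genes. An unadjusted p under 0.05 was found for 9 with a higher value and none with a lower one, beside 3.03% and 3.51% of all genes. RPLP0, of the ribosomal stalk, was at 10171, 10421 and 9329 in LacZ cells at 90 min and at 10880, 11782 and 11696 at 360 min, and in RBMS3 cells at 11947, 11121 and 10685 and at 15546, 16284 and 15446. It rose by 0.20 and by 0.49, a difference of 0.29 ± 0.07 (limma adjusted p 0.33). RPL27A rose by 0.34 and by 0.65 and RPL36A by 0.34 and by 0.56. After rescaling to the ribosomal protein sum, 42 of the 80 were above 0 and the median was 0.01. The nuclear genes of the respiratory chain (68 tested, 46 above 0, median 0.09) and of the proteasome (37 tested, 26 above 0, median 0.09) had differences of the same size. No member of either passed, beside 0.00827% of all genes.

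Mitochondrially encoded transcripts had the most negative median among the lists chosen by function with at least 10 genes tested. They are made by the mitochondrial RNA polymerase as long transcripts that are cut at tRNA genes, and some neighbours overlap or lie on opposite strands, so reads near a border cannot be told apart without strand. Of 15 genes 12 had a difference below 0, and the median was -0.20 beside 0.00 for all genes. An unadjusted p under 0.05 was found for 6 with a lower value and none with a higher one, beside 3.51% and 3.03% of all genes. No member passed. In LacZ cells 2 rose and 8 fell, in RBMS3 cells 1 rose and 10 fell, and 8 fell in both, beside falls of 5.12%, 8.35% and 3.87% of all genes. After rescaling to ribosomal proteins 14 were below 0 and the median was -0.29. The same rescaling moved the median difference of all genes from 0.00 to -0.08, so it is not separate support.

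MT-CO1, a subunit of cytochrome c oxidase, was at 4816, 4447 and 4503 in LacZ cells at 90 min and at 6087, 5644 and 5903 at 360 min. In RBMS3 cells it was at 3744, 3709 and 3681 and then at 3710, 3576 and 3362. It rose by 0.36 in LacZ cells, with no overlap between times, and changed by -0.07 in RBMS3 cells with an adjusted p of 0.50. The difference was -0.42 ± 0.08 (limma adjusted p 0.077), of which -0.36 lay between 90 and 180 min. From 0 to 90 min, a window that shares the 90 min libraries, its difference was -0.59 (adjusted p 8.9e-05). Rescaling to ribosomal proteins, which lowered the median difference of all genes to -0.08, brought the 90 to 360 min difference to a limma adjusted p of 0.031.

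MT-ND1, a subunit of complex I, was at 2966, 3156 and 2851 and then at 2235, 2383 and 2249 in LacZ cells, and at 1529, 1595 and 1422 and then at 797, 813 and 772 in RBMS3 cells. It fell, with changes of -0.38 and -0.93, a difference of -0.55 ± 0.12 (limma adjusted p 0.24). MT-ND6, the complex I subunit encoded on the other strand from the rest, was at 135, 137 and 162 and at 75.6, 136 and 106 in LacZ cells, where the times overlapped. In RBMS3 cells it was at 65.9, 48.3 and 63.0 and fell to 16.1, 17.8 and 9.27. Its difference was -1.52 ± 0.34, of which -1.18 lay between 90 and 180 min. MT-RNR2, the large mitochondrial ribosomal RNA, rose by 0.56 in LacZ cells and changed by 0.17 in RBMS3 cells, a difference of -0.39 ± 0.10 (adjusted p 0.29). MT-ND3, MT-CO3 and MT-ATP8 fell in both lines. Their changes were -1.36 and -1.38 for MT-ND3, -0.82 and -0.81 for MT-CO3 and -0.90 and -0.94 for MT-ATP8, with differences of -0.02, 0.01 and -0.04.

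**Figure D3:**
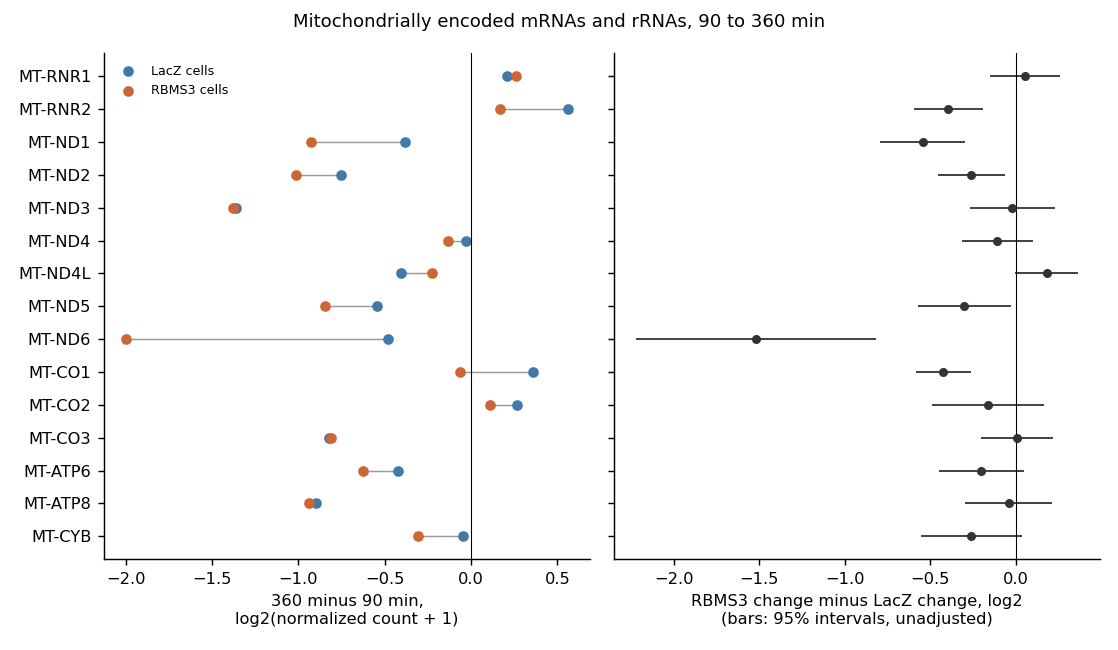
Left, change from 90 to 360 min of the 15 mitochondrially encoded mRNAs and rRNAs in LacZ and RBMS3 cells; right, RBMS3 change minus LacZ change with its unadjusted 95% interval, all in log2. The intervals of MT-CO1, MT-ND1, MT-ND2, MT-ND5, MT-ND6 and MT-RNR2 lie below 0, and none lies above.

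Mitochondrial tRNAs, grouped by symbol after the values were seen, had some of the largest shared rises. Of 16 tested 9 rose in LacZ cells and 8 in RBMS3 cells, 8 in both, beside 3.38%, 7.62% and 2.41% of all genes. Another 2 fell in each line (5.12% and 8.35% of all genes): MT-TA changed by -1.96 in LacZ cells and -2.33 in RBMS3 cells and MT-TY by -1.35 and -1.30. MT-TV, the valine tRNA that lies between both mitochondrial ribosomal RNAs, was at 1430, 1682 and 1762 in LacZ cells at 90 min and at 10913, 10846 and 8219 at 360 min. In RBMS3 cells MT-TV was at 907, 624 and 1244 and then at 6162, 6102 and 5186. It rose by 2.61 and by 2.70, a difference of 0.09 ± 0.24. MT-TC rose by 2.07 and 1.98 and MT-TD by 2.75 and 2.89. The median difference of the 16 was -0.11, and the lowest, MT-TH, was -3.22 ± 0.99 (limma adjusted p 0.45).

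Small nuclear, nucleolar and other small RNAs leaned to lower differences. A list of 77, made by symbol after the values were seen, had a median difference of -0.52 beside 0.00 for all genes, and 56 were below 0. Of the 77, 12 had an unadjusted p under 0.05 with a lower value and none with a higher one, beside 3.51% and 3.03% of all genes. RNA5S1 is 1 of these 12 and the one that passed. The median change was 0.35 in LacZ cells, where 11 rose and 1 fell, and -0.24 in RBMS3 cells, where 6 rose and 7 fell; of all genes 3.38% rose and 5.12% fell in LacZ cells and 7.62% and 8.35% in RBMS3 cells. Many of these genes have near-identical copies, such as RNU1-1, RNU2-1 and the RN7SL genes, so the value of 1 copy is uncertain, and most lack a poly(A) tail in their mature form. By class the median difference was -0.70 for 32 snoRNAs and scaRNAs (26 below 0), -0.72 for 10 spliceosomal RNAs (9 below 0) and -0.10 for 29 RN7SL copies (17 below 0), with median SEs of 0.83, 0.99 and 0.83.

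RNU2-1, the U2 spliceosomal RNA, was at 54.4, 124 and 84.4 and then at 492, 449 and 356 in LacZ cells, and at 146, 204 and 112 and then at 329, 301 and 316 in RBMS3 cells. It rose by 2.36 and by 1.07, a difference of -1.28 ± 0.43 (limma adjusted p 0.54). RNU1-1, of the U1 particle, rose by 2.37 in LacZ cells and changed by 0.40 in RBMS3 cells, a difference of -1.98 ± 0.61. RNY3, a Y RNA, was at 68.7, 111 and 68.7 and at 137, 159 and 153 in LacZ cells and at 122, 113 and 111 and at 76.8, 54.5 and 82.4 in RBMS3 cells. The times did not overlap in either line and went opposite ways, rising by 0.88 in LacZ cells, while the change of -0.70 in RBMS3 cells had an adjusted p of 0.086. Its difference was -1.58 ± 0.39 (adjusted p 0.29). SCARNA22 was at 934, 1164 and 908 and at 1001, 1024 and 933 in LacZ cells, and fell from 1316, 1320 and 1580 to 663, 847 and 747 in RBMS3 cells, a difference of -0.89 ± 0.22. Other members rose in both lines: SNORD13, which acts in ribosomal RNA processing, rose by 0.89 and 1.06, SNORD3A, the U3 RNA, by 2.27 and 1.51, and SNORD118, the U8 RNA, by 3.16 and 3.88.

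**Figure D4:**
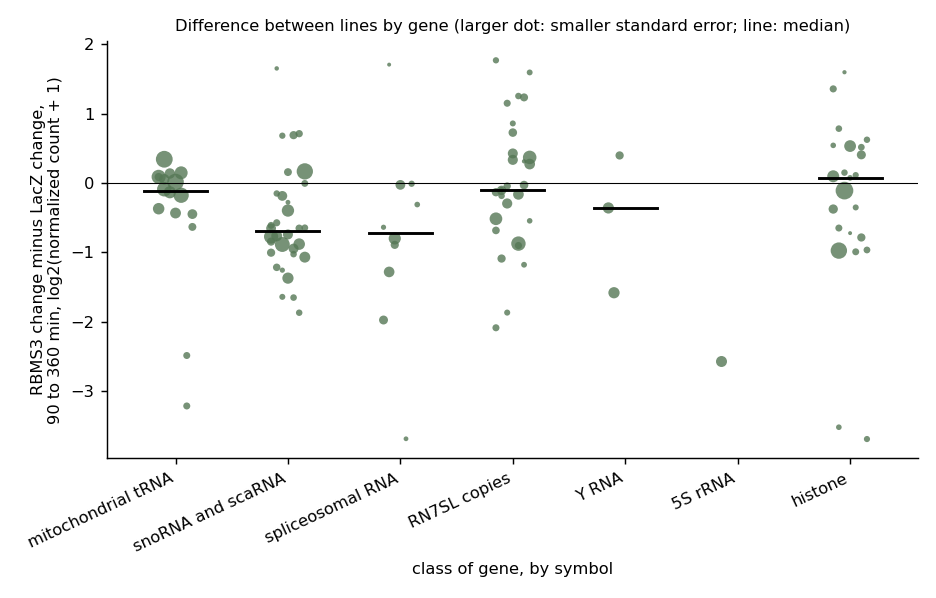
RBMS3 change minus LacZ change from 90 to 360 min, in log2, for each gene of 7 classes by symbol; larger dots have a smaller standard error and horizontal bars are class medians. Most snoRNAs, scaRNAs and spliceosomal RNAs lie below 0, mitochondrial tRNAs lie close to 0 apart from 2, and the 5S rRNA dot is at -2.56.

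The genes nearest to the threshold after RNA5S1 were TSC22D1, MT-CO1 and H4C3, each at an adjusted p of 0.077; these and the genes below were picked by their p, after the values were seen. TSC22D1, a leucine zipper protein induced by TGF-beta, was at 187, 197 and 169 in LacZ cells at 90 min, at 82.8, 72.7 and 63.9 at 180 min and at 147, 111 and 75.9 at 360 min. In RBMS3 cells it was at 147, 189 and 212, at 98.6, 66.1 and 74.1 and at 29.7, 33.9 and 34.8. The lines overlapped at 90 and at 180 min and were apart at 360 min. TSC22D1 fell, with changes of -0.77 and -2.43, a difference of -1.66 ± 0.30, of which -1.79 lay between 180 and 360 min.

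H4C3, a replication-dependent H4 histone gene, was at 3537, 4828 and 4044 in LacZ cells at 90 min, at 3116, 2935 and 2678 at 180 min and at 1963, 1888 and 1715 at 360 min. In RBMS3 cells H4C3 was at 3394, 3386 and 4155, at 1155, 1373 and 1259 and at 796, 937 and 776. It fell, with changes of -1.15 and -2.12, a difference of -0.97 ± 0.18, of which -1.03 lay between 90 and 180 min. The lines overlapped at 90 min and were apart at 180 and 360 min. Among 23 histone genes tested, a list made by symbol after the values were seen, the median difference was 0.07, 11 were below 0 and H4C3 was the most precise of 3 with an unadjusted p under 0.05. H4 genes are near-identical in their coding part, so the assignment among copies is uncertain, and transcripts of this class end in a stem-loop and mostly lack a poly(A) tail. The other 2, H2BC15 and H4C14, were at 0 to 39.6 in the 12 libraries, with SEs of 1.54 and 1.28.

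SEPHS2, which makes the selenium donor for selenoproteins, fell in both lines, with changes of -0.74 and -1.90, from 320, 273 and 263 to 164, 148 and 202 and from 202, 247 and 199 to 63.5, 49.2 and 58.7. IMP3, a protein of the U3 nucleolar particle, fell, with changes of -1.08 and -1.83, and its line difference went from 0.56 at 90 min to -0.19 at 360 min. JUND, a subunit of AP-1, was at 268, 296 and 256 and at 218, 217 and 185 in LacZ cells, a change of -0.40 with an adjusted p of 0.089. In RBMS3 cells JUND fell by 1.26, from 270, 282 and 233 to 93.9, 118 and 114, and its difference was -0.85 ± 0.20. HMGA2, a chromatin protein of mesenchymal and embryonic cells, was at 3785 to 4345 in all 6 LacZ libraries and fell in RBMS3 cells from 1006, 1171 and 952 to 646, 637 and 767, a difference of -0.70 ± 0.16. MAP2K7, a kinase of the JNK pathway, had a difference of -0.67 ± 0.15 and fell by 0.83 in RBMS3 cells. PLEKHA2 rose by 0.94 in LacZ cells and changed by -0.76 in RBMS3 cells with an adjusted p of 0.067, a difference of -1.70 ± 0.39. These 6 differences had adjusted p of 0.24 to 0.29.

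On the positive side no gene came as near in the fit of all 24 libraries. TMEM97, a sterol-regulated membrane protein known as the sigma-2 receptor, was at 636, 686 and 663 and at 586, 600 and 554 in LacZ cells. In RBMS3 cells TMEM97 was at 673, 811 and 859 and rose to 1244, 1073 and 1091, by 0.54, and its difference was 0.74 ± 0.16 (limma adjusted p 0.24). POLR2E, a subunit shared by nuclear RNA polymerases, rose by 0.60 in RBMS3 cells with a difference of 0.40 ± 0.09, ARPC4, of the Arp2/3 complex, by 0.63 with 0.45 ± 0.11, and MED24, of the Mediator complex, by 0.72 with 0.61 ± 0.16. TAGLN2, an actin-binding protein, was at 6575 to 6854 at 90 min and 6955 to 8957 at 360 min in LacZ cells, and rose from 8000, 7028 and 8860 to 14564, 13414 and 12298 in RBMS3 cells, a difference of 0.50 ± 0.13. PGPEP1, a peptidase, had the largest difference of these, 5.93 ± 1.26, and its replicates were uneven: 77.8, 124 and 124 and then 13.7 to 19.9 in LacZ cells, and 11.4, 3.48 and 8.12 and then 210, 43.5 and 44.7 in RBMS3 cells. All 12 positive genes taken by p had adjusted p of 0.24 to 0.36 in the fit of all 24 libraries. With the 12 libraries compared alone, PGPEP1 had a limma adjusted p of 0.060, the same as RNA5S1 in that fit. TSC22D1, MT-CO1 and H4C3 had 0.237, 0.191 and 0.191 there.

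The gene lists of the epithelial-mesenchymal program, the subject of the study, showed no called difference. Over all 12096 genes tested 1 passed (0.00827%), so the absence of calls in lists of this size says little about them. Of 14 tested EMT factors and RBMS family members 6 fell in LacZ cells and 5 in RBMS3 cells, all 5 in both, and the median difference was 0.12. TWIST1 was at 28.2, 50.6 and 46.7 in LacZ cells and fell to 15.9, 20.7 and 15.0, by 1.20. In RBMS3 cells TWIST1 was at 313, 367 and 327 and at 218, 274 and 227, a change of -0.49 with an adjusted p of 0.15, and its difference of 0.71 ± 0.31 had a limma adjusted p of 0.71. FOXC1 and SOX4 fell in both lines, with changes of -1.12 and -1.54 for FOXC1 and -0.57 and -0.59 for SOX4. ZEB1, a repressor of CDH1, was at 9.07 to 33.0 in LacZ cells and at 362 to 522 in RBMS3 cells, a difference of -0.12 ± 0.54, whose interval spans more than 1 log2 unit either way. RBMS1 and RBMS2, the other members of the family, had differences of 0.48 ± 0.32 and 0.28 ± 0.24. Over all genes 3.38% rose and 5.12% fell in LacZ cells, 7.62% rose and 8.35% fell in RBMS3 cells, and 3.87% fell in both. Of 47 mesenchymal genes 1 rose and 2 fell in LacZ cells and 3 rose and 1 fell in RBMS3 cells, with a median difference of 0.00, and VIM had -0.10 ± 0.11. Of 45 epithelial genes 1 rose and 1 fell in LacZ cells and 2 rose and 1 fell in RBMS3 cells, with a median of -0.12. These list medians include genes near 0 in 1 line, such as CDH1 and EPCAM in RBMS3 cells and PRRX1 in LacZ cells. Such genes have no measurable change there, so the medians are not purely measured line differences. The calls in the mesenchymal and epithelial lists were near or below the shares of all genes.

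Among the other lists, inflammatory AU-rich transcripts had a median difference of -0.12 over 28 tested. Of these, 4 had an unadjusted p under 0.05, all 4 lower, beside 3.51% of all genes. CXCL1, a chemokine, was at 224, 178 and 188 and at 177, 205 and 188 in LacZ cells, where the times overlapped. In RBMS3 cells CXCL1 fell by 1.25 from 22.3, 54.2 and 21.7 to 11.4, 14.7 and 10.3, a difference of -1.20 ± 0.43 (limma adjusted p 0.61). NFKB1, a subunit of NF-kappa-B, had a difference of -1.17 ± 0.38. Of 42 G2 and mitosis genes 7 fell in LacZ cells and 12 in RBMS3 cells, beside 5.12% and 8.35% of all genes, and AURKA, a mitotic kinase, had -0.60 ± 0.23 and fell by 1.06 in RBMS3 cells. Zinc finger genes of the KRAB type had a median of 0.30 over 67 tested, with 42 above 0, and 6 fell in LacZ cells and 8 in RBMS3 cells, beside the same shares of all genes. TGF-beta and activin genes had a median of 0.21 over 32, with changes of -0.32 in LacZ cells and -0.01 in RBMS3 cells. Of the 66 tested genes for mRNA decay and AU-rich binding 6 fell in LacZ cells and 8 in RBMS3 cells, not far above 5.12% and 8.35% of all genes, and the median was -0.02.

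**Figure D5:**
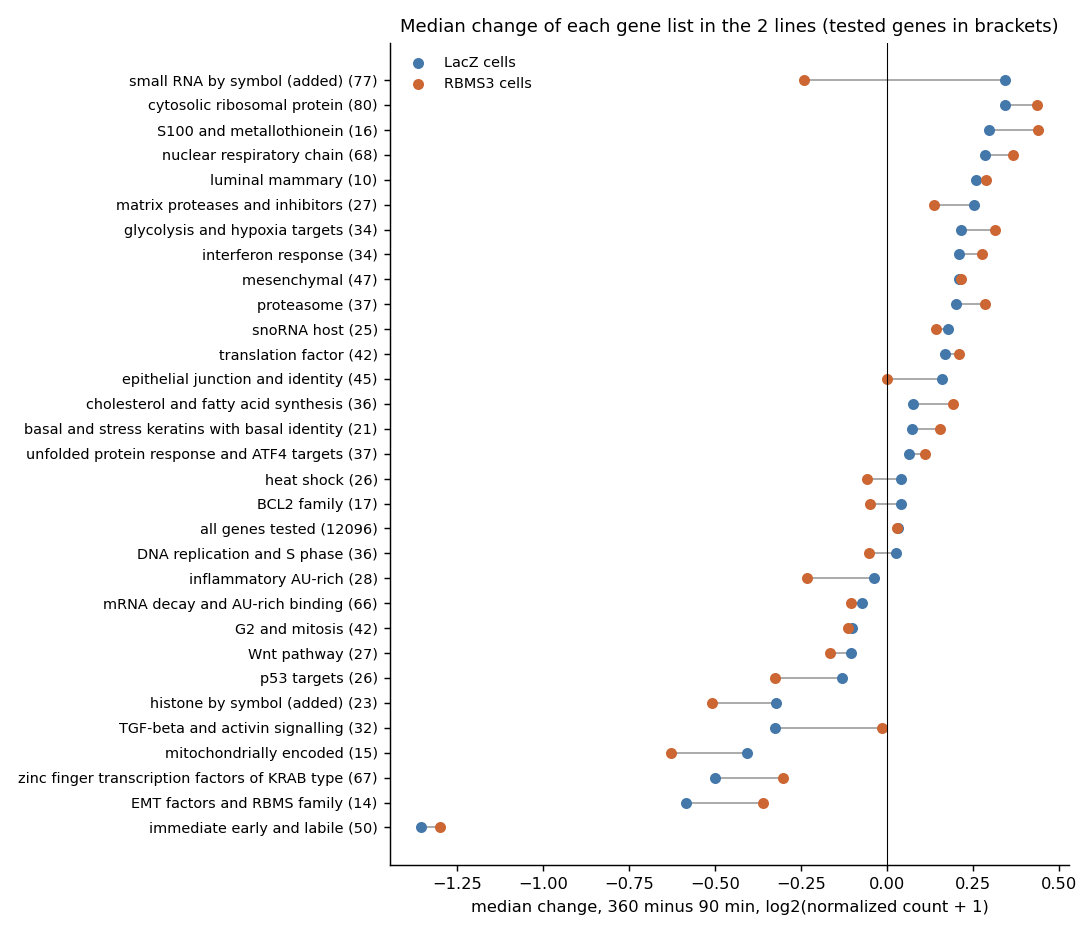
Median change from 90 to 360 min of each gene list with at least 10 tested genes, in log2(normalized count + 1), in LacZ and RBMS3 cells, with the number tested in brackets. Immediate early and labile genes sit at -1.35 and -1.30, ribosomal proteins at 0.35 and 0.44, and the list of small RNAs has medians on opposite sides of 0.

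The early window and the parts of the later one were set beside the whole. From 0 to 90 min 633 genes differed in their change between the lines (5.23%), 328 with a higher and 305 with a lower value; the window shares the 90 min libraries with the 90 to 360 min comparison, with opposite sign. The difference between the 2 windows' values passed for 36 of the 12096 genes. From 90 to 180 min and from 180 to 360 min, which share the 180 min libraries, limma called no gene. An unadjusted p under 0.05 was found for 521 (4.31%) and 618 (5.11%) of the genes tested. SEPHS2 moved 1 way throughout, with line differences of 0.61, -0.40, -0.98 and -1.56 at the 4 times. MED24 went from -0.90 to -0.59, -0.35 and 0.02.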

How the data were processed

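Per the labels, RNA of HMLE cells was read with QuantSeq as 75 bp single reads, and the submitters' processing notes name DESeq2 1.32.0, Salmon 1.4.0 and Trim Galore 0.6.6. The build behind the authors' counting is unstated in the sources used here. The main source was the authors' deposited table of a normalized signal (the normalized count) for 38849 genes in 24 libraries, whose values are not whole reads. The transcript files deposited by the authors hold estimated counts, 4426445 to 9856338 reads per library. Names of 12 of the 24 files differ from the titles of the samples they are attached to, so the estimated counts, rounded and summed over genes (GENCODE 29, 95.1% to 95.7% of reads matched), were used within RBMS3 cells alone.

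All 24 libraries were fitted as 8 group means with limma 3.58.1 (R 4.3.3, with a trend in the variance) on log2(normalized count + 1), which understates changes of low genes, over the 12096 genes with a mean of at least 10. P-values were adjusted by Benjamini-Hochberg over all of them, and a gene was called at an adjusted p under 0.05. The script was tested on simulated data. Alternatives were another pseudocount, filter, scaling, variance model or set of libraries, a replicate block, and edgeR 4.0.16 within RBMS3 cells. The members and lists were chosen with earlier results of these data known. The naming rule took RBMS3, PRRX1 and called genes with a mean of at least 50 in the highest group; since 1 gene was called, the 12 smallest p in each direction (mean of at least 50, and of at least 10 in each line), list members at an unadjusted p under 0.05, the mitochondrial and EMT lists, markers, small RNAs and histones, and genes called alike in both lines were added after seeing the values. The 3' untranslated regions are those of the most abundant matched coding transcript in GENCODE 29. Some items are not reported here.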

Additional observations from a re-analysis of the deposited data

Results flagged for a closer look

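RNA5S1 was singled out because the difference between the lines in its change from 90 to 360 min passed the test of that difference: it was -2.56 on the log2 scale, with a rise of 3.53 in LacZ cells and of 0.97 in RBMS3 cells. It was above its 90 min values at 360 min in 3 of 3 libraries of each line. What sets the size of the rise in either line was not tested.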

How the results depend on the processing

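The count of 1 called difference between the lines was 2 (both lower) with no filter on low values, 0 with the 12 libraries compared alone, and 5 (all lower) with libraries scaled to ribosomal proteins. The last of these settings moved the median difference of all genes from 0.00 to -0.08. Leaving out 1 of the 12 libraries gave 0 to 4 called genes, 0 to 4 lower and 0 to 1 higher; the 4 came without LacZ 90 min replicate 2 (3 lower, 1 higher) or LacZ 360 min replicate 3 (4 lower). Without LacZ 0 min replicate 2, chosen after seeing the data, it was 7 (6 lower, 1 higher), with TSC22D1, MT-CO1, H4C3, HMGA2 and MED24 among them. Replicate numbers did not pair the libraries: 18 correlations of same-numbered deviations ran from -0.073 to 0.049, and 3 of 18 were the best with their own number. With the replicate number as a block the count was 0, in 12 and in 24 libraries, and RNA5S1 had adjusted p of 0.144 and 0.0769. In LacZ cells 1759 genes were called (33 higher, 1726 lower) when scaled to ribosomal proteins, 671 without LacZ 90 min replicate 1, and rises ranged from 208 to 267 without 1 of the 5 libraries named in the report and reached 735 of 1483 calls without LacZ 0 min replicate 2. In RBMS3 cells 2925 were called (37 higher, 2888 lower) when scaled to ribosomal proteins, rises were 592 without RBMS3 360 min replicate 2 and 1330 without LacZ 0 min replicate 2, and edgeR on estimated counts found 1596 lower and 1247 higher of 11847 tested, sharing 1649 of 1864 calls in direction, with 3 opposite. PRRX1 went from 0.17 to -0.237 when scaled to ribosomal proteins. The other pseudocounts, a mean of at least 50 and robust moderation left these counts within 1.5 times. Scaling the normalized table by median ratios left it almost unchanged (921 rises in RBMS3 cells in place of 922), so it is no separate check of the scale. The difference between lines was not run in edgeR, because the files of LacZ cells and their samples disagree.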
